A study of Mus musculus with 96 samples.

Results

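The genes described here are 7 of the 24321 gene symbols measured: Eef1a1, Eef1b2, Eef1d, Eef1g, Eef2, Pabpc1 and Tpt1. They were chosen by name, as translation elongation factors and other known TOP transcripts, and were followed cell by cell along the level of Hba-a1, an alpha-globin gene that red cell precursors switch on as they mature. RNA was measured in 96 single cells of mouse marrow, captured on a Fluidigm C1 system and amplified with SMART-Seq chemistry, and every cell is labelled as an erythroid precursor from C57BL/6 mice of genotype Rpl11 +/lox. Rpl11 is a gene of the ribosome's large subunit. The labels name no wild-type cells, no separate animals and no Cre driver, so all cells form 1 group, cells are not replicates, and no p-value is given. The unit is RPKM, the reads of a transcript per kilobase of its length and per 1000000 mapped reads. Levels were compared as log2(RPKM + 1), a scale on which a change of a weakly expressed gene looks smaller than it is.

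Translation elongation adds amino acids to the growing protein. The factor encoded by Eef1a1 brings each charged tRNA to the ribosome, an exchange complex encoded by Eef1b2, Eef1d and Eef1g recharges it with GTP, and the factor encoded by Eef2 moves the ribosome along by a codon. Messenger RNAs of elongation factors and of ribosomal proteins are known as TOP mRNAs, for a terminal oligopyrimidine tract: in human and mouse cells their transcripts start with a C followed by a run of C and U, and their translation is held back when mTOR signalling is low. Pabpc1, which encodes the main cytoplasmic poly(A)-binding protein, and Tpt1, which encodes the growth-related protein TCTP, carry the same kind of tract. Red cell precursors make very large amounts of globin, and they clear their ribosomes and most other RNAs before the red cell is complete.

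The RefSeq table of start sites, on build GRCm38.p6, held 4 of the 7 genes, and their windows from 40 bases before to 30 bases after the annotated start are shown because the TOP tract is the feature that names the group. Eef1d, Eef1g and Pabpc1 had no entry. Sequences run 5′ to 3′ on the gene's own strand, and capitals mark a C followed without a break by at least 4 C or T, where it begins from 5 bases before the start onward.
Eef1a1: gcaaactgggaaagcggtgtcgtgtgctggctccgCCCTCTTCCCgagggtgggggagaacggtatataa
Eef1b2: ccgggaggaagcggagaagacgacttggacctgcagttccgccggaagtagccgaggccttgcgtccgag
Eef2: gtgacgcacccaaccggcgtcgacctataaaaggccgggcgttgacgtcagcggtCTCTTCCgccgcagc
Tpt1: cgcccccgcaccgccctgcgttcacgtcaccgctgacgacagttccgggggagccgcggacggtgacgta
The windows lie at chr9:78481695-78481764 on the minus strand for Eef1a1, and on the plus strand at chr1:63176791-63176860 for Eef1b2, chr10:81176591-81176660 for Eef2 and chr14:75845216-75845285 for Tpt1. Positions count from 1 at the annotated start. A run that began within 5 bases of the annotated start was found in Eef1a1, at position -5, which is 1 of the 4 genes, against 44.1% of 68 ribosomal protein start sites and 17.1% of all 32851 start sites. In Eef2 the run began at position 16, and in Eef1b2 and Tpt1 a run began at positions 33 and 41, outside the windows shown. A run somewhere in the 50 bases after the start was common, in 86.8% of ribosomal protein start sites and 51.3% of all. Eef1a1 also has the letters TATAA at position 26, after its annotated start, and Eef2 has them at position -15. In Eef1a1 the run thus lies before TATAA, and in Eef2 after it. The search was on the gene's strand for the runs and for TATAA. Start site use in these cells was not measured, so which of these runs, if any, opens a transcript is not known here.

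Of the 96 cells, 69 listed at least 1000 genes at 1 RPKM or more. In 10 of these a marker list of another blood lineage was met and 4 had fewer than 3 of 27 erythroid markers at 10 RPKM, which left 55 cells. Non-globin erythroid markers fit the label in the kept cells, with a median of 20 of 27 at 10 RPKM (3 to 27). The exception was 1 cell of run code SCP-170608 with 3 such markers and the lowest Hba-a1 level, and the next lowest count was 14. Neutrophil and monocyte or macrophage markers were nearly absent, with at most 2 and 1 of 11 at 10 RPKM, and Csf1r and Cd79a were at 0 in every kept cell. Mpo, a neutrophil marker, and Pf4, a megakaryocyte marker, reached at most 28.0 and 41.9 RPKM in kept cells. The same marker lists were used to keep cells, so this fit is partly built in. The cells were ordered by Hba-a1 and cut into 3 ranges of near-equal size, which are stretches of a gradient and not cell types. The globin-poor range held 19 cells with Hba-a1 at 723 to 307302 RPKM, the middle range 18 cells at 321044 to 439819 RPKM, and the globin-rich range 18 cells at 443162 to 570277 RPKM. Cells near the borders were many, with 5 and 18 cells within 10% of the lower and the upper border. Estimated depth was 6620000, 7410000 and 7970000 reads at the median from the globin-poor to the globin-rich range, while the number of genes at 1 RPKM fell in the other direction, 3446, 1848.5 and 1237. Most genes that could be counted shared that trend: of 4243 genes listed at 1 RPKM in 10 or more kept cells, 70.3% were lower in the globin-rich than in the globin-poor range by at least 1 on the log2 scale with the same direction in each run code, and 0.99% were higher. By size alone, whatever the run codes, 76.6% were lower. Without that filter the rule called 3698 of all 24321 genes lower and 45 higher, and the median difference was 0. The median difference over the 4243 genes was -2.17, and each value below is to be read against it.

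**Figure D1:**
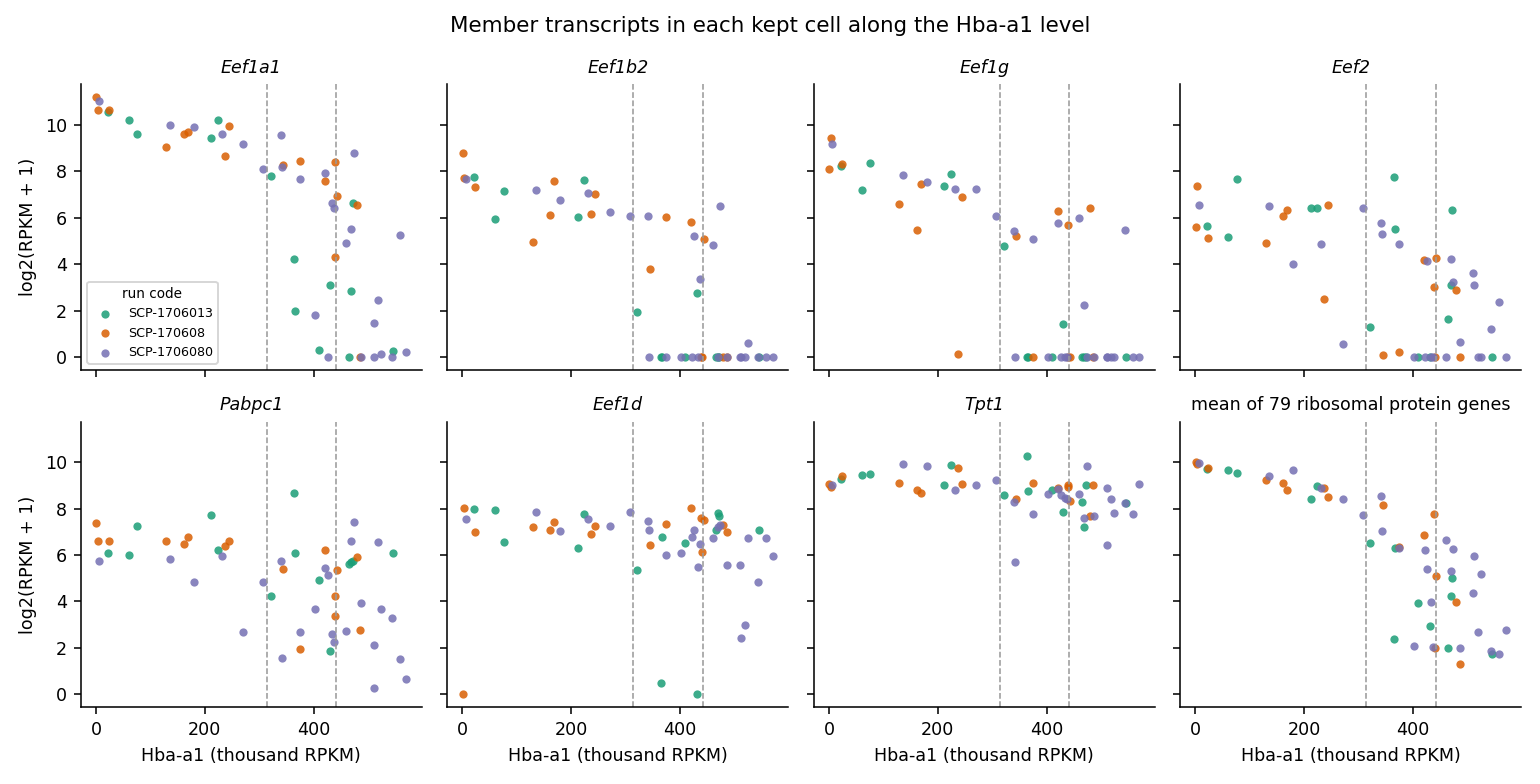
Level of each of the 7 genes, and the mean of 79 ribosomal protein genes, as log2(RPKM + 1) in each of the 55 kept cells (y axis) against Hba-a1 in units of 1000 RPKM (x axis); each point is a cell, coloured by run code, and dashed lines are the borders of the ranges. Past the first border Eef1b2 and Eef1g lie at 0 in 24 cells each and Eef1a1 in 6, where the ribosomal protein mean is also lower, whereas Tpt1 stays above 5 in every cell.

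Eef1a1, the elongation factor that carries tRNA to the ribosome, had the highest mean level of the 7 in globin-poor cells and differed by -6.97. Eef1g or Eef1b2 differed more than it with a pseudocount of 0.1, with gene minimums of 2000 or none, without run code SCP-1706080 and within SCP-1706013. It was listed at 0 to 443 RPKM in the globin-rich range, with a median of 3.15 RPKM, against 273 to 2331 RPKM in the globin-poor range, with a median of 976 RPKM. In 17 of 18 globin-rich cells it lay below the lowest globin-poor cell, so the ranges met in 1 cell. The mean log2 level was 2.89 ± 3.08 in the globin-rich range (SD over 18 cells) and 9.86 ± 0.79 in the globin-poor range (SD over 19 cells). It reached 1 RPKM in 10 of 18 globin-rich cells (55.6%, exact 95% interval 30.8% to 78.5%) and in 19 of 19 globin-poor cells. In globin-rich cells 3 reads of Eef1a1 were worth 0.14 to 0.50 RPKM, so the limit of 1 RPKM lay above what so few reads give. The intervals cover counting error only. Processed pseudogenes of Eef1a1 exist, and how their reads were assigned is not known here.

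Eef2, which moves the ribosome along the message, was lower by 3.48 on average, and its cells were mixed. It was listed at 0 to 80.7 RPKM in the globin-rich range, with a median of 3.19 RPKM, against 0.50 to 201 RPKM in the globin-poor range, with a median of 67.5 RPKM. Of the 18 globin-rich cells, 12 lay inside the globin-poor range. Its lower end was set by 1 cell, and the next lowest was at 4.68 RPKM, above the globin-rich median. Eef2 reached 1 RPKM in 11 of 18 globin-rich cells (61.1%, 35.7% to 82.7%) and in 18 of 19 globin-poor cells. The mean log2 level was 5.52 ± 1.69, 2.35 ± 2.68 and 2.04 ± 1.93 in the globin-poor, middle and globin-rich ranges. Nearly all of the difference of Eef2 thus lay between the globin-poor and middle ranges, between which Hba-a1 also differed most.

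The 3 genes of the exchange complex did not move together. Eef1b2, the catalytic subunit, was at 1 RPKM or more in 3 of 18 globin-rich cells (16.7%, 3.58% to 41.4%) and in 19 of 19 globin-poor cells. It was listed at 0 to 89.1 RPKM in the globin-rich range, with a median of 0, against 30.1 to 441 RPKM in the globin-poor range, with a median of 134 RPKM. In 16 of 18 globin-rich cells it lay below every globin-poor cell. The mean log2 difference was -5.96, with means of 0.95 ± 2.11 in the globin-rich and 6.91 ± 0.90 in the globin-poor range.

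Eef1g, the structural subunit, followed the same course. It was at 1 RPKM or more in 4 of 18 globin-rich cells (22.2%, 6.41% to 47.6%) and in 18 of 19 globin-poor cells. It was listed at 0 to 86.1 RPKM in the globin-rich range, with a median of 0, against 0.11 to 688 RPKM in the globin-poor range, with a median of 173 RPKM. The difference of mean log2 levels was -6.07, and 14 of 18 globin-rich cells lay below the lowest globin-poor cell.

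Eef1d, the second exchange subunit, overlapped between the ranges, and fully so only by way of 1 globin-poor cell at 0. It was listed at 4.34 to 222 RPKM in the globin-rich range, with a median of 117 RPKM, against 0 to 257 RPKM in the globin-poor range, with a median of 153 RPKM. All 18 globin-rich cells lay inside the globin-poor range, and all 18 reached 1 RPKM, as did 18 of 19 globin-poor cells. In those 18 globin-poor cells the lowest value was 77.7 RPKM, and some globin-rich cells lay below it. The difference of mean log2 levels was -0.66, below the size of 1 used for a call, and it was 0.64 after removing globin genes and rescaling. It was -1.76, and called lower, after rescaling each cell to 1000000. It had no common direction over run codes, at 0.10 in SCP-1706013, 0.92 in SCP-170608 and -1.86 in SCP-1706080. These values rest on 4, 3 and 11 globin-rich cells. The only globin-poor cell without Eef1d was the cell with 3 erythroid markers. It is 1 of the 8 globin-poor cells of SCP-170608, so its value of 0 entered the 0.92. Leaving this cell out gave -1.05, still with no common direction. Eef1d was listed at 1 RPKM or more while Eef1b2 and Eef1g both were not in 0 of 19 globin-poor, 6 of 18 middle and 12 of 18 globin-rich cells. Eef1d has 8 transcript entries, whose highest value was used in each cell.

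Pabpc1, the poly(A)-binding protein gene, was lower but seldom lost. It was listed at 0.22 to 171 RPKM in the globin-rich range, with a median of 27.0 RPKM, against 5.34 to 212 RPKM in the globin-poor range, with a median of 83.9 RPKM. It reached 1 RPKM in 16 of 18 globin-rich cells and in 19 of 19 globin-poor cells, and 14 of 18 globin-rich cells lay inside the globin-poor range. The lower end of that range was set by 1 cell, and the next lowest was at 27.2 RPKM, just above the globin-rich median. The difference of mean log2 levels was -1.92, close to the median of all genes. Of the 847 genes with a globin-poor mean of at least 5.52, 682 had a more negative difference and 165 a less negative one. It was -0.83, and no longer called, when globin genes were removed and each cell rescaled.

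Tpt1 was listed in every kept cell, at 84.9 to 918 RPKM in the globin-rich range, with a median of 307 RPKM, against 401 to 960 RPKM in the globin-poor range, with a median of 555 RPKM. Its lowest value in any of the 55 cells was 50.2 RPKM. Globin-rich cells were mostly lower, with 13 of 18 below the lowest globin-poor cell. The mean log2 level was 8.23 ± 0.80 in the globin-rich range and 9.25 ± 0.38 in the globin-poor range, a difference of -1.02 that just passed the size of a call, and that was 0.27 after removing globin genes and rescaling. It was -2.20 after rescaling each cell to a total of 1000000. Without run code SCP-1706080 it was -0.77 and without SCP-1706013 it was -0.95, so the call of Tpt1 ended when either was left out.

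**Figure D2:**
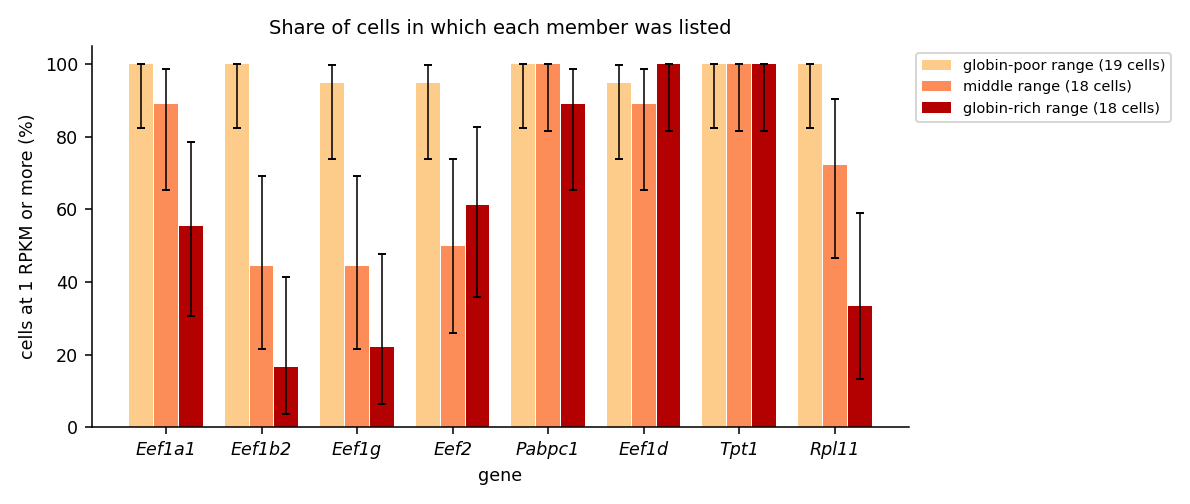
Percentage of cells (y axis) in which each of the 7 genes and Rpl11 (x axis) was at 1 RPKM or more, in the globin-poor, middle and globin-rich ranges; error bars give the exact 95% interval (Clopper-Pearson) for counting error. Eef1b2 and Eef1g are at 16.7% and 22.2% in the globin-rich range, where Eef1d and Tpt1 are at 100%.

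By the size rule 6 of the 7 genes were lower and 1 was neither. By the same rule 70.3% of all genes and 82.8% of the 847 more strongly expressed genes were lower, so the count is not a result about these genes. Leaving out run codes SCP-1706080 or SCP-1706013 made it 5, removing globin genes 4, and rescaling to 1000000 made it 7. What set the 7 apart from each other was the amount. Ribosomal protein transcripts give the comparison: all 79 were lower, with a median difference of -5.55. Eef1a1, Eef1g and Eef1b2 lay among them, with 4, 19 and 21 ribosomal protein genes showing a more negative difference. For Eef2, 75 of the 79 showed a more negative difference. Pabpc1, Tpt1 and Eef1d differed less than each of the 79. Starting level limits this ranking: globin-poor means were 5.52 for Eef2 and 6.14 for Pabpc1, against 9.18 for the ribosomal protein mean. Eef2 could thus not have reached -5.55. Of the 847 more strongly expressed genes, 14, 76 and 90 had a more negative difference than Eef1a1, Eef1g and Eef1b2. For Eef2, Pabpc1, Tpt1 and Eef1d these were 530, 682, 724 and 762. The 847 genes were chosen by their globin-poor mean alone, which favours negative differences, so their share lower and these ranks are descriptions. Rpl11, the gene altered in these mice, differed by -7.06 and reached 1 RPKM in 6 of 18 globin-rich and 19 of 19 globin-poor cells.

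**Figure D3:**
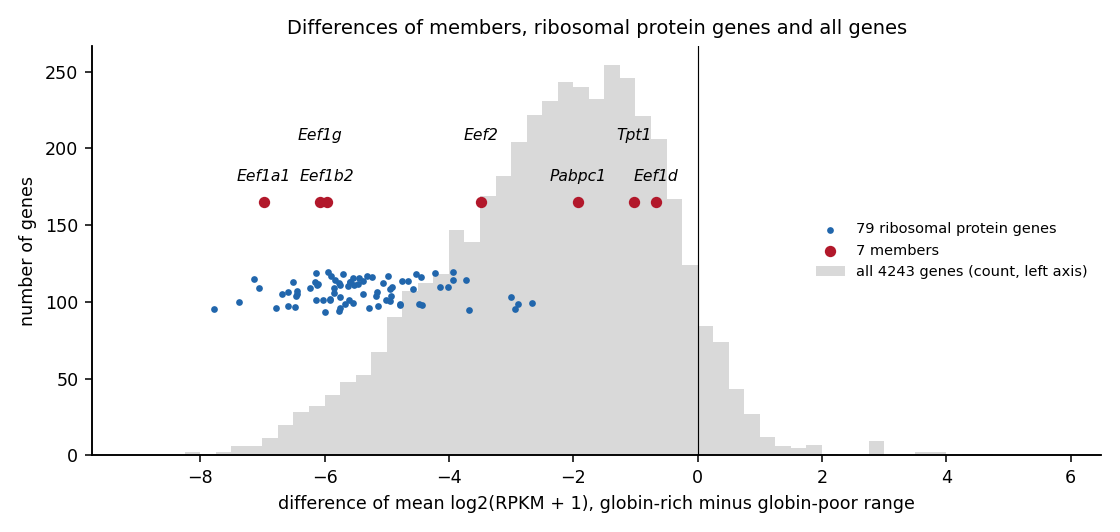
Difference of mean log2(RPKM + 1), globin-rich minus globin-poor range (x axis), for all 4243 genes as a histogram (y axis, number of genes), for 79 ribosomal protein genes (blue, height arbitrary) and for the 7 genes (red, height arbitrary). Eef1a1, Eef1g and Eef1b2 lie among the ribosomal protein genes, and Pabpc1, Tpt1 and Eef1d lie to the right of all of them.

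Each gene was also set against the ribosomal protein mean of its own cell. This does not cancel the scale of a cell where values are at 0, and rescaling moved the differences of Eef1b2 to -0.03 (cells rescaled to 1000000) and -1.53 (globin genes removed). Relative to that mean, Tpt1 was at 4.44 ± 1.98 in the globin-rich range and 0.07 ± 0.68 in the globin-poor range (SD over 18 and 19 cells). Eef1d was at 2.52 ± 2.27 and -2.21 ± 2.01 in the same ranges, and Pabpc1 at 0.43 ± 2.66 and -3.04 ± 1.12. Tpt1, Eef1d and Pabpc1 thus ended 4.37, 4.73 and 3.47 higher relative to ribosomal protein transcripts, on the log2 scale. That mean itself differed by -5.39, so every gene with a less negative difference gained. A gene at the median of all 4243 genes, -2.17, would gain too, and Pabpc1, at -1.92, was close to it. For Tpt1 and Eef1d the gain exceeded the SD over cells in both ranges, and for Pabpc1 it exceeded it as well. Eef2 gained 1.91, against SDs of 1.92 and 1.69. Eef1a1, Eef1g and Eef1b2 shifted by -1.58, -0.68 and -0.57, each less than the SD over globin-rich cells, which was 2.52, 2.67 and 1.80.

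Across the 55 cells Eef1a1, Eef1b2 and Eef1g also tracked the ribosomal protein mean from cell to cell, with rank correlations of 0.90, 0.84 and 0.82. Those of Eef2, Tpt1, Pabpc1 and Eef1d were 0.66, 0.53, 0.48 and 0.46. With Hba-a1 the rank correlations were -0.86 for Eef1a1, -0.79 for Eef1b2, -0.77 for Eef1g, -0.65 for Eef2, -0.56 for Tpt1, -0.51 for Pabpc1 and -0.34 for Eef1d. With globin genes removed and cells rescaled, signs turned for Tpt1 (0.32 with Hba-a1 and -0.28 with the ribosomal protein mean) and Eef1d (0.22 and -0.02). The number of genes listed moved with these levels, with a rank correlation of 0.86 for Eef1a1 and 0.47 for Tpt1, and its part in the result was not tested. These are descriptions over cells that share a capture system and an RPKM total. Within the globin-rich range, where all cells had high Hba-a1, the rank correlation with the ribosomal protein mean was 0.62 for Eef1b2, 0.53 for Eef1a1 and 0.43 for Eef2, and 0.20, 0.12, 0.08 and 0.01 for Eef1g, Eef1d, Pabpc1 and Tpt1 (18 cells). Eef1b2 and Eef1g were at 0 in 14 of these 18 cells each, so their values rest on few cells. Within the globin-poor range it was 0.81 for Eef1a1, 0.69 for Eef1g, 0.59 for Eef1b2 and 0.13 for Eef2 (19 cells). For Tpt1, Pabpc1 and Eef1d it was 0.15, 0.07 and 0.05 there. Between 2 of the 7 genes, the rank correlation over all kept cells was highest for Eef1a1 with Eef1b2, at 0.83, and lowest for Eef1d with Tpt1, at 0.28.

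The make-up of the summed RPKM of the 7 genes shows the same split within single cells. In the globin-rich range Tpt1 made up a median of 63.2% of the sum (33.5% to 89.7%), against 28.3% (13.7% to 55.8%) in the globin-poor range. Eef1a1 made up 1.23% (0 to 24.8%) in the globin-rich range, against 42.1% (20.2% to 61.5%) in the globin-poor range. Eef1d made up 20.7% and 7.70% at the median in the same ranges. The sum itself was 502 RPKM at the median in the globin-rich range and 2340 RPKM in the globin-poor range. Eef1a1, Eef1b2, Eef1g and Eef2 were all listed at 1 RPKM or more in 17 of 19 globin-poor, 3 of 18 middle and 0 of 18 globin-rich cells. None of those 4 was listed at that level in 5 globin-rich cells, 4 of which still listed Eef1d, Pabpc1 and Tpt1.

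**Figure D4:**
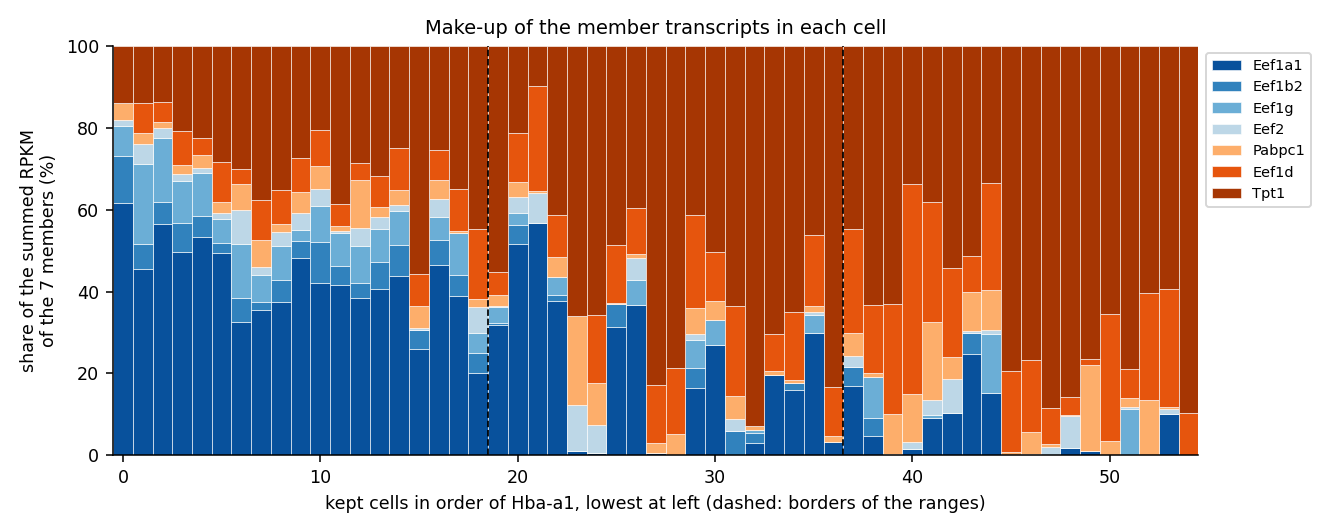
Share of the summed RPKM of the 7 genes in percent (y axis), stacked by gene, for each of the 55 kept cells in order of Hba-a1 (x axis, lowest at left); dashed lines are the borders of the ranges. The dark blue Eef1a1 block has a median of 1.23% in the globin-rich range, where Tpt1 and Eef1d have medians of 63.2% and 20.7%, against a median of 42.1% in the globin-poor range.

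The middle range splits each difference into steps, which are unequal along Hba-a1 itself. Mean log2 Hba-a1 differed by 2.47 from the globin-poor to the middle range, and by 0.35 from there to the globin-rich range. From the globin-poor to the middle range Eef1g differed by -4.98, Eef1b2 by -4.96, Eef1a1 by -4.16 and Eef2 by -3.17, while Pabpc1 differed by -1.91, Eef1d by -1.02 and Tpt1 by -0.73. From the middle to the globin-rich range Eef1a1 differed by a further -2.81, and the ribosomal protein mean by -1.48. The other 6 genes differed by between -1.09 (Eef1g) and 0.36 (Eef1d) in that step. Of these, Eef1b2, Eef1g and Eef2 had middle-range means of 1.95, 2.21 and 2.35, against 5.70 for Eef1a1. They could thus not have differed by -2.81. Within the middle range Eef1a1 was mixed, from 0 to 749 RPKM with a median of 144 RPKM.

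Other genes of the translation machinery were mostly lower in globin-rich cells. A gene was counted if 10 or more kept cells listed it at 1 RPKM, and the share lower over all such genes was 70.3%. A gene could pass through globin-poor and middle cells alone, as did 6 of the 77 genes counted, which were listed in 0 globin-rich cells and so had to be lower, and the counts below are descriptions. Of 14 other known TOP genes 13 could be counted, and all 13 were lower, with a median difference of -4.92. Those with the largest differences were Gnb2l1, which encodes the ribosome-bound scaffold RACK1 (-6.54), Naca (-6.35) and Btf3 (-5.96), which encode the nascent polypeptide-associated complex, and Hnrnpa1, which encodes an RNA-binding protein (-6.09). None of these 13 was as close to level as Tpt1 or Eef1d, and the smallest difference among them was -1.69, in Eif4b, which was listed in 0 of 18 globin-rich and 8 of 19 globin-poor cells. Vim, the other gene of that list, was at 1 RPKM in 0 cells of both ranges.

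Among initiation factors 25 of 26 could be counted and 25 were lower, with a median of -4.52. The largest differences were in the eIF3 subunit genes Eif3i (-6.69), Eif3m (-6.50) and Eif3g (-6.24) and in the helicase gene Eif4a1 (-6.02). Eif1, which encodes a factor for start codon choice, differed least, at -1.18, with mean log2 levels of 8.82 in the globin-rich and 10.00 in the globin-poor range. It was named after its value was seen. Of 12 other elongation and release factor genes 8 could be counted and 6 were lower, with a median of -2.30. Eef1e1, which encodes a partner of tRNA synthetases, differed by -5.44 and was listed in 1 of 18 globin-rich and 16 of 19 globin-poor cells. Eif5a, the hypusine-carrying elongation factor gene, differed by -4.98 but was still listed in 13 of 18 globin-rich cells. The release factor gene Etf1 differed by -3.42 and Vars, a valyl-tRNA synthetase gene, by -1.94. Eef2k, whose product phosphorylates and inhibits eEF2, was neither higher nor lower, at 0.32, and was listed in 5 cells of each of these ranges. The tissue-restricted paralogue Eef1a2 was at 1 RPKM in 0 cells of both ranges.

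Genes acting with Pabpc1 were sparse. Of 9 genes in the list 6 could be counted and 6 were lower, with a median of -1.55. Paip2, which encodes a repressor of the poly(A)-binding protein, differed by -5.23, with a mean log2 level of 1.39 in the globin-rich and of 6.61 in the globin-poor range. Pabpc4, a paralogue of Pabpc1, differed by -2.11, Larp4b by -1.57 and Larp1, which encodes a TOP-binding protein, by -1.53. Of 13 mTOR pathway genes 3 could be counted, so the list says little here, and 2 of the 3 were lower. Eif4ebp1, an inhibitor of cap binding, differed by -5.35 and was listed in 1 of 18 globin-rich and 15 of 19 globin-poor cells, and Rheb, an activator of mTOR, differed by -3.58. Rps6kb1, which encodes an S6 kinase, was not called, with mean log2 levels of 0.48 in the globin-rich and 1.49 in the globin-poor range. It was named after its value was seen.

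Elongation genes outside the cytoplasmic TOP group also were lower. Of 7 mitochondrial elongation and initiation genes 4 could be counted and 4 were lower, with a median of -2.08, close to the median of all genes. Tsfm, the mitochondrial exchange factor gene, differed by -3.90 and was listed in 0 of 18 globin-rich and 12 of 19 globin-poor cells, and Mtif2 and Mtif3 differed by -1.68 and -1.62. Of 6 genes for diphthamide, the modified residue of eEF2, 3 could be counted and all were lower, namely Dph5 (-2.87), Dph3 (-2.60) and Dnajc24 (-2.36). Of 19 cytosolic tRNA synthetase genes 15 could be counted and 15 were lower, with a median of -2.95, led by Farsb (-4.79), Sars (-4.28), Eprs (-4.17) and Hars (-4.09).

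Genes most like the mean of the 7 over the 55 cells were sought among 1345 genes listed in at least 50% of kept cells. The 7, the ribosomal protein genes and the globin genes were left out of this search. The ribosomal protein mean itself had a rank correlation of 0.88 with the mean of the 7. Over the 1345 genes the median rank correlation was 0.49. The 10 most alike were led by Ndufb2, a respiratory chain gene (0.87). They held Atp5h, an ATP synthase gene (0.85), and Romo1, a gene for a mitochondrial membrane protein (0.85). Rpl34-ps1 (0.86) and Rplp2-ps1 (0.84) are ribosomal protein pseudogenes, and how reads were split between them and their parent genes is not known here. The others were Gm10653 (0.86), Wdr38, Gm6251, Mir703 and Wdr89 (each 0.84).

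The 14 cells set aside for markers carried few erythroid markers, at most 5 of 27. Their median level was 5880 RPKM for Mpo, a gene of neutrophil precursors, and 264 RPKM for Hba-a1, and their median estimated depth was 4420000 reads. Mean log2 levels there were 10.24 ± 0.58 for Eef1a1, 7.30 ± 0.59 for Eef1b2, 6.31 ± 1.72 for Eef2 and 9.00 ± 0.63 for Tpt1 (SD over 14 cells). These lay within 1 on the log2 scale of the globin-poor erythroid levels given above. Tpt1 made up 19.0% of the summed RPKM of the 7 genes at the median in these cells and 28.3% in globin-poor erythroid cells, and Eef1a1 50.4% and 42.1%.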

How the data were processed

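The authors deposited RPKM values for 34899 RefSeq transcript entries in 96 cells. Per the submitters' processing notes, alignment software and build were TopHat2 2.0.9 and mouse mm9. How reads were counted is not stated there. RPKM is a share of the mapped reads, so a rise of globin lowers other values. A gene was given its highest transcript in each cell. Depth was estimated from the steps between low values, with lengths from GENCODE for 96.4% of transcripts, and could count reads or read pairs. No 2 kept cells had identical values (0 pairs).

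Cells needed 1000 genes at 1 RPKM, no non-erythroid list met (at least 3 and 50% of its markers at 10 RPKM, over 8 lists) and 3 erythroid markers at 10 RPKM. A gene was called by a log2 difference of at least 1 with 1 direction in each run code holding 3 cells in both ranges. Run codes are those of the sample descriptions, which hold 3; all 96 titles carry 1 of them, so whether they are batches is not settled. The size rule was tested on values of the kept cells shuffled within each gene, with known differences added to some genes. The depth estimate was tested on simulated reads, but at no depth as low as that of most cells under the gene minimum. The genes, lists and rules were chosen with earlier results of these data known. Named genes were the 7, Hba-a1, Rpl11, the 4 largest differences per list among genes listed in at least 50% of cells of a range, and the 10 genes most like the mean of the 7; others named were chosen after their values were seen. Python 3.11.15, pandas 2.3.3 and scipy 1.17.1 were used. Alternatives covered the pseudocount, scaling, gene minimum, transcript sum, globin ranges, marker filters and run codes.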

Additional observations from a re-analysis of the deposited data

Results flagged for a closer look

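The 27 cells under the gene minimum, which enter no comparison, still listed several of the 7 genes at 1 RPKM or more. Pabpc1 was listed in 16 of the 27, Eef1a1, Eef2 and Tpt1 in 9 each, Eef1g in 4, Eef1d in 2 and Eef1b2 in 0, where a count of 0 allows a share of up to 11.1% (taken as 3 cells of 27). They were singled out because these are signals in cells left out of the comparisons. Their Hba-a1 level ranged from 682 to 594269 RPKM, and their estimated depth was 180000 reads at the median in the 23 cells with an estimate, and 2 of the 23 lay within the depth range of kept cells. The way of estimating depth was not tested at depths as low as that median. The highest values, 16251 RPKM for Tpt1 and 10146 RPKM for Pabpc1, are above any kept cell.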

How the results depend on the processing

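In all 21 settings, the reported one included, Eef1a1, Eef1b2 and Eef1g had more negative differences than Eef1d, Pabpc1 and Tpt1. Where a call could be made, Eef1a1, Eef1b2, Eef1g and Eef2 were called lower in 17 of 17 alternatives, Pabpc1 in 16, Tpt1 in 7 and Eef1d in 1. The difference of Tpt1 turned positive with a gene minimum of 500 (0.12), with no gene minimum (1.06) and with globin genes removed (0.27), and was -2.20 when cells were rescaled to 1000000. With a pseudocount of 0.1 the differences of Eef1b2 and Eef1g were -8.61 and -8.54, and the medians of the 7 genes and of all genes -4.68 and -3.52. With a pseudocount of 10 they were -3.30 and -3.61, with medians of -1.98, -4.03 (ribosomal protein genes) and -0.95 (all genes), and 1981 genes lower and 20 higher. A gene minimum of 500 gave a median of all genes of -1.67 and 68 higher. A gene minimum of 2000, which kept 25 cells, gave -2.30 for Eef1a1, -3.43 for Eef1b2 and -3.48 for Eef1g, medians of -2.30 (the 7 genes) and -2.25 (ribosomal protein genes), 174 higher, and differences relative to the ribosomal protein mean of -0.22 (Eef2), 0.56 (Pabpc1) and 1.27 (Tpt1). With no gene minimum Eef1a1, Eef1b2 and Eef1g were at -3.59, -3.00 and -3.87, Eef2 at -0.67 relative to the ribosomal protein mean, the medians at -2.67 (ribosomal protein genes) and -1.01 (all genes), 42 ribosomal protein genes lower, and 1842 genes lower and 134 higher. A split into 2 ranges gave -4.06 for Eef1b2, medians of -4.15 and -1.54 for ribosomal protein and all genes, and 21 higher. The count of genes higher, 42 as reported, was 22 when rescaled, 140 with globin removed, 119 with fixed borders, 79 with cells of few erythroid markers kept and 97 with no cell set aside. Leaving out 1 run code gave medians of all genes of -2.68 to -2.41 and 43 to 72 genes higher. Within SCP-170608 Eef1a1 was at 0.37 relative to the ribosomal protein mean. Without a filter on genes the median of all genes was 0. The causes were not tested. The cell with 3 erythroid markers was left out as an alternative chosen after seeing the data, and no call of the 7 genes changed. No paired analysis was possible because the labels give 1 group. Genes listed at 0 may have been missed by capture, and depth was estimated rather than given.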
